A study of Mus musculus with 8 samples.

Results

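Cells descended from hypertrophic chondrocytes that had either lost β-catenin or carried a stabilised form of it were compared together with wildtype cells. The question was which genes left the wildtype level in the same direction whichever way β-catenin was altered. All 8 libraries of the study entered, 6 from mutants and 2 from wildtype, and 12888 of the 48490 listed genes were tested. These were the genes with an FPKM (sequenced fragments relative to the length of the transcript and the size of the library) of at least 1 in at least 2 libraries. LoF (loss of function) mice were Col10a1Cre;Rosa26-Tdtomato;Ctnnb1Δ/Δ, with both alleles of Ctnnb1, the β-catenin gene, deleted, and gave 4 libraries. GoF (gain of function) mice were Col10a1Cre;Rosa26-Tdtomato;Ctnnb1-exon3 Δ/+, lacking exon 3 of 1 allele, and gave 2 libraries. Wildtype (WT) mice were Col10a1Cre;Rosa26-Tdtomato and gave 2 libraries. So every group, the controls included, carried Cre under the control of Col10a1, which hypertrophic chondrocytes express, and the red tdTomato reporter that marks the cells in which Cre has acted and their progeny. All mice were at postnatal day 5, and each library was a Smart-seq2 preparation of 70 tdTomato-positive cells picked by hand from the proximal tibia. Whether each library came from its own mouse is not in the labels, so the p-values here reflect differences from library to library, which may be technical.

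β-catenin is both the transcriptional effector of canonical Wnt signalling and a structural link between cadherins and the cytoskeleton. Without a Wnt signal a destruction complex built on Apc and Axin phosphorylates the part encoded by exon 3 and marks the protein for degradation, so that loss of exon 3 stabilises it. In the growth plate, part of the hypertrophic chondrocytes survive and turn into bone-forming and marrow stromal cells, and β-catenin is known to favour the bone-forming fate. A gene that follows the amount of active β-catenin would lie on opposite sides of WT in LoF and GoF, and the comparison looks for genes on the same side in both.

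Few genes did so at the test's threshold. Each gene was tested with limma, a linear model that moderates each gene's spread with that of all genes, on log2(FPKM + 1). The contrast was the mean of the LoF mean and the GoF mean, minus the WT mean. A gene was called at a Benjamini-Hochberg adjusted p under 0.05 over the 12888 genes. Higher calls numbered 18 (0.14% of tested genes) and lower calls 9 (0.0698%). A call of this average does not by itself mean a common direction, since a large departure in 1 genotype can carry it. Same-direction genes were therefore defined as called genes whose 6 mutant libraries all lay on 1 side of both WT libraries, with LoF and GoF each at least 1 away from WT on the log2 scale. They numbered 18, of which 12 were higher (0.0931%) and 6 lower (0.0466%) in mutants. Without the call, the 6 mutant libraries lay above both WT libraries in 489 genes (3.79%) and below both in 471 (3.65%), 7.45% in all. If the libraries were interchangeable, the 28 possible assignments alone would give a fraction of 0.0714. The share was thus near that given by chance, and such an order by itself is weak evidence of a departure. With the distance of at least 1 in both genotypes added, 136 genes (1.06%) remained on the higher side and 157 (1.22%) on the lower side. Most of these were not called.

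The genes of opposite or unequal response were far more numerous. GoF differed from LoF in 1501 genes (11.6%). In 559 of these (4.34%) both WT libraries lay between all LoF and all GoF libraries, 299 of them highest in GoF and 260 highest in LoF. Against WT alone, LoF differed in 159 genes (1.23%, 73 higher and 86 lower) and GoF in 298 (2.31%, 182 higher and 116 lower). Genes called in both of these single comparisons with 1 sign numbered 12 higher (0.0931%) and 7 lower (0.0543%), and 14 of these 19 were also same-direction genes. The single comparisons share their WT libraries, so a gene that is off in those libraries departs the same way in both, and the number of shared calls was not tested. The median of the signed differences from WT was -0.02 in both mutants together, 0.06 in LoF and -0.08 in GoF on the log2 scale. The difference between the WT libraries, taken without its sign, had a median of 0.48. It measures the spread of single genes and cannot be set against the signed medians.

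**Figure D1:**
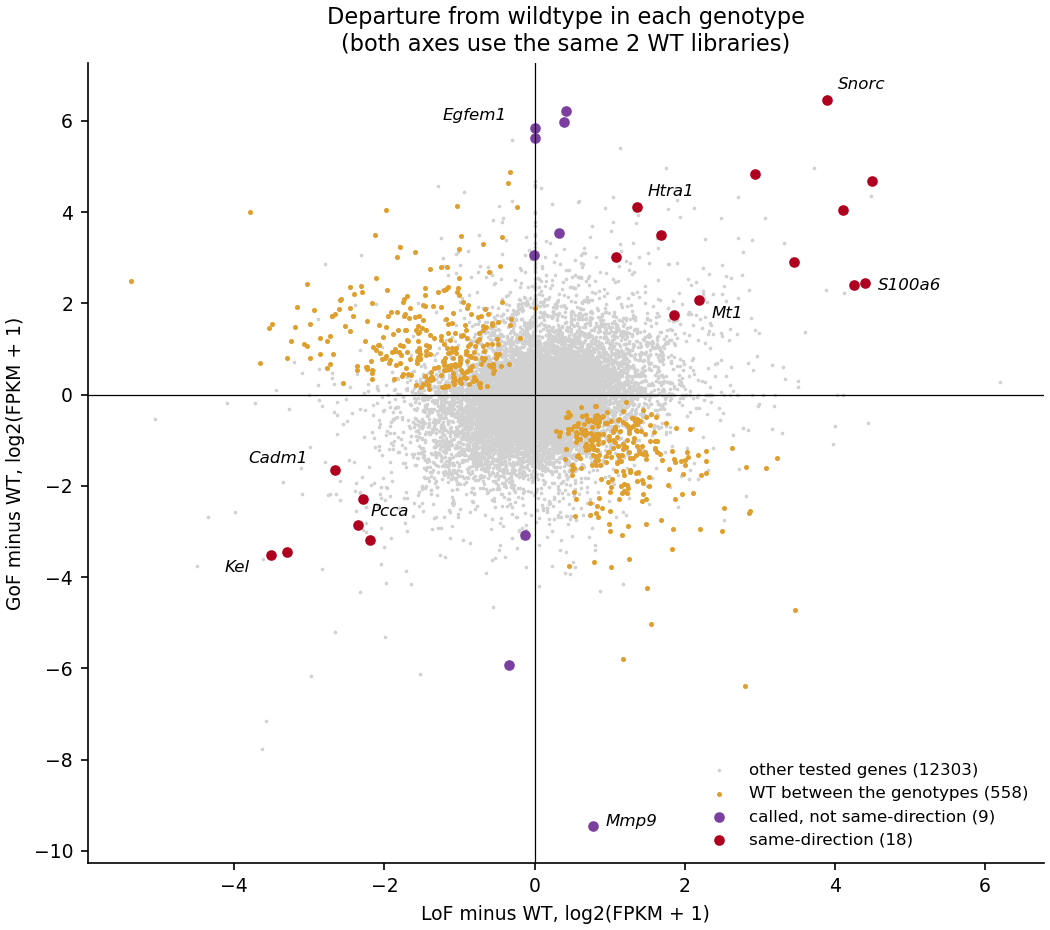
Difference from WT in LoF (horizontal axis) and in GoF (vertical axis) for each of the 12888 tested genes, on the log2(FPKM + 1) scale. Both axes use the same 2 WT libraries, which by itself stretches the cloud along the rising diagonal. The 18 same-direction genes (red) lie at the upper right and lower left, 9 further called genes (purple) lie near the vertical axis because LoF was close to WT, and genes with WT between the genotypes (orange) lie at the upper left and lower right. Mmp9, which is both called and ordered in this way, is drawn in purple.

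FPKM summed to 293194 to 382101 per library, with 12587 to 13944 genes above 0. Neither shows how many reads were sequenced, and read counts are not known, so no counting error is given. Other properties moved with the groups. Transcripts resembling ribosomal RNA took 13.5% and 14.0% of FPKM in WT, 12% and 12.1% in GoF, and 3.65% to 5.81% in LoF, so that WT had the highest shares and LoF by far the lowest. WT 1, WT 2, LoF 1 and LoF 4 held Xist and no Y-linked transcript. LoF 2, LoF 3, GoF 1 and GoF 2 held Y-linked transcripts and no Xist. Sex and the GoF genotype therefore cannot be told apart against WT, and the part of the ribosomal RNA share in the results was not tested.

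Ctnnb1 itself was lower in both mutants. Its FPKM was 81.0, 67.3, 70.4 and 81.1 in LoF libraries 1 to 4, 72.0 and 86.7 in GoF and 137 and 146 in WT, so the 6 mutant libraries lay below both WT libraries without overlap. The WT mean was 1.89-fold the LoF mean and 1.79-fold the GoF mean. The difference of -0.87 ± 0.23 (SE, log2 scale) did not pass the test across genes (adjusted p = 0.21). The exact two-sided permutation test of the 6 against the 2 libraries gave p = 0.0714, which is the smallest that the 28 possible assignments allow. FPKM covers the whole gene and the labels do not give the exons deleted in LoF, so these values do not show how far the allele was recombined in the picked cells.

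Around β-catenin, 19 of the 20 listed members of the destruction complex and the cadherin junction were tested and limma called none. Its unadjusted p was under 0.05 in 4, beside 1255 of all 12888 genes. Apc, the scaffold of the destruction complex, had 0.932, 1.36, 0.603 and 0.995 FPKM in LoF, 0.889 and 0.663 in GoF and 3.51 and 5.53 in WT. Cdh2, the cadherin of mesenchymal cells, had 33.1 to 55.1 FPKM in LoF, 32.4 and 51.0 in GoF and 64.9 and 95.1 in WT. Jup, plakoglobin, the close relative of β-catenin that can take its place in junctions, had 8.29 to 12.7 FPKM in LoF, 7.68 and 10.4 in GoF and 6.64 and 7.57 in WT. In Apc and Cdh2 every mutant library was thus below WT and in Jup every one was above it, by a margin that was narrow in Jup. The adjusted p-values were 0.23, 0.42 and 0.81, with log2 differences of -1.54, -0.84 and 0.35. With Ctnnb1 itself, 3 of the 19 had all mutants below WT and 1 all above, beside 3.65% and 3.79% of all genes. The median difference of the list was -0.04, near that of all genes (-0.02).

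Wnt targets, receptors and transcription factors had no called member in limma either. Its unadjusted p was under 0.05 in 5 of 15 tested targets, 2 of 21 receptors, ligands and antagonists and 1 of 13 nuclear factors. Over all tested genes it was so in 1255 of 12888. Of the 15 targets, 7 differed between the genotypes, beside 11.6% of all genes. Axin2, the feedback target that reads canonical Wnt activity, was listed at 0 in all LoF libraries, at 5.26 and 2.80 FPKM in GoF and at 0 and 0.323 in WT. Fzd7, a Wnt receptor, was the single target with all mutants on 1 side of WT: 0.839 to 4.17 FPKM in LoF, 3.29 and 1.65 in GoF, and 0 and 0.135 in WT (adjusted p = 0.38). The co-receptor Lrp6 lay below WT in all 6 mutant libraries (LoF 2.51 to 4.41, GoF 3.59 and 1.17, WT 5.34 and 5.70 FPKM, adjusted p = 0.65). None of 13 tested TCF/LEF factors and nuclear partners had its 6 mutant libraries on 1 side of WT. Over all tested genes 7.45% had.

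**Figure D2:**
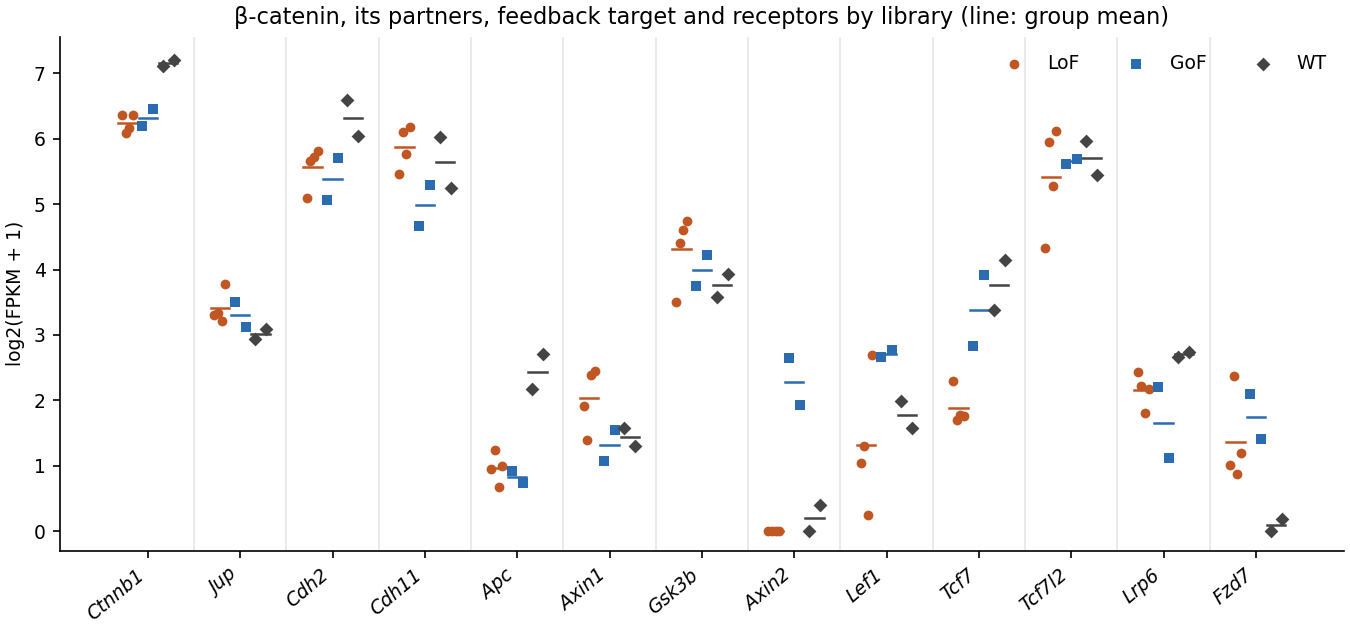
log2(FPKM + 1) of Ctnnb1, of its junction and destruction complex partners, of the feedback target Axin2, of TCF/LEF factors and of 2 Wnt receptors in the 4 LoF (circles), 2 GoF (squares) and 2 WT libraries (diamonds), with group means as lines. Ctnnb1, Cdh2, Apc and Lrp6 lie below WT in every mutant library and Jup and Fzd7 above it, whereas Axin2 is above 0 in both GoF libraries and at 0 in all 4 LoF libraries.

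Among the genes that rose were a calcium-binding protein, a growth factor and a secreted protease. S100a6 (chr3:90612882-90624181, mm10), which encodes the calcium-binding protein calcyclin of fibroblasts and stromal cells, had 360, 318, 623 and 493 FPKM in LoF, 86.7 and 140 in GoF and 12.4 and 30.6 in WT. The mean was 20.9-fold the WT mean in LoF and 5.28-fold in GoF. The difference of both mutants from WT was 3.42 ± 0.38 (SE, log2 scale, adjusted p = 0.0109), and the single comparisons gave 4.40 in LoF (adjusted p = 0.00586) and 2.44 in GoF (adjusted p = 0.026). The 3 groups did not overlap, and GoF lay 1.96 ± 0.40 below LoF (adjusted p = 0.0115). S100a16, a neighbour in the S100 cluster of chromosome 3 that was chosen after its values were seen, ran from 24.9 to 41.2 FPKM in mutants and was 7.91 and 9.99 in WT (adjusted p = 0.0654).

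Igf2 (chr7:142650766-142666816), an imprinted growth factor of fetal and neonatal tissue, had 39.3, 51.8, 87.8 and 132 FPKM in LoF, 13.4 and 25.5 in GoF and 1.61 and 4.25 in WT. It rose by 3.33 ± 0.50 in both mutants (adjusted p = 0.0313), by 4.26 in LoF (adjusted p = 0.0075) and by 2.40 in GoF, where the single comparison did not pass (adjusted p = 0.0758). As with S100a6, LoF was the more distant genotype, by 1.86 ± 0.52 (adjusted p = 0.046). Igf1r, the receptor through which Igf2 signals, lay above WT in every mutant library (LoF 6.62 to 12, GoF 4.37 and 4.87, WT 2.29 and 1.14 FPKM) without passing the test (adjusted p = 0.25). H19, the imprinted neighbour of Igf2, did not share its pattern, with 7.14 to 56.3 FPKM in LoF, 1.23 and 0 in GoF and 5.63 and 3.99 in WT. Of 24 tested genes of the IGF, FGF and VEGF list, Igf2 alone was called, and the median difference was -0.004.

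Htra1 (chr7:130936111-130985660), a secreted serine protease that cuts matrix proteins and dampens TGF-β family signals, moved most in GoF. It had 146, 119, 137 and 112 FPKM in LoF, 946 and 795 in GoF and 65.2 and 36.8 in WT. This was 2.52-fold the WT mean in LoF and 17.1-fold in GoF. It rose by 2.74 ± 0.26 in both mutants (adjusted p = 0.00438) and passed in LoF (1.36, adjusted p = 0.0484) and in GoF (4.12, adjusted p = 0.000514), and the gap of 2.75 ± 0.28 between GoF and LoF also passed (adjusted p = 0.000259). In the list of matrix-degrading enzymes and inhibitors, 16 were tested, 1 was called higher (Htra1) and 1 lower (Mmp9). Mmp9, the gelatinase of resorbing and hypertrophic zones, shows how the average can be called without a common direction: it had 5913, 4768, 4691 and 3735 FPKM in LoF, 3.27 and 2.56 in GoF and 3167 and 2403 in WT, so LoF was 1.72-fold WT and GoF far below it (-9.47, adjusted p = 1.26e-07).

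Id1 (chr2:152736251-152737410), an inhibitor of helix-loop-helix factors and a direct target of BMP signals, had 12.2, 13.7, 17.1 and 32.4 FPKM in LoF, 67.1 and 61.4 in GoF and 6.49 and 3.43 in WT. It rose by 2.59 ± 0.41 in both mutants (adjusted p = 0.0453), with 3.50 in GoF (adjusted p = 0.00679) and 1.68 in LoF, which did not pass alone (adjusted p = 0.107). GoF was 1.82 ± 0.43 above LoF (adjusted p = 0.023). Its relatives Id2 and Id3 also had every mutant library above WT but were not called. Id2 ran from 21.8 to 40.5 FPKM in mutants against 15.7 and 11.4 in WT (adjusted p = 0.33), and Id3 from 210 to 349 against 176 and 153 (adjusted p = 0.36). Id4 showed no such order. Of 28 tested genes of TGF-β and BMP signalling, 5 had all mutants above WT (Id1, Id2, Id3, Bmp2 and the latent TGF-β binding protein Ltbp2) and 0 had all mutants below, beside 3.79% and 3.65% of all genes, and the median difference was 0.26. Id1 is among the 5 because the same-direction rule requires it. Bmp2, the BMP ligand of cartilage and bone, had 2.26 to 4.52 FPKM in LoF, 30.7 and 16.9 in GoF and 1.40 and 0 in WT (adjusted p = 0.0768).

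Mt1 (chr8:94179082-94180327), a metallothionein that binds zinc and copper and responds to metals, glucocorticoids and stress, was alike in both genotypes. It had 81.0, 119, 96.1 and 143 FPKM in LoF, 67.0 and 148 in GoF and 21.7 and 23.9 in WT. The means were 4.81-fold WT in LoF and 4.72-fold in GoF. The difference was 2.13 ± 0.34 in both mutants (adjusted p = 0.0462), 2.19 in LoF (adjusted p = 0.0238) and 2.08 in GoF (adjusted p = 0.03). GoF minus LoF was -0.10 ± 0.36 (SE, adjusted p = 0.887), which leaves room for a difference in either direction. Mt2, its neighbour, chosen after its values were seen, was listed at 0 in both WT libraries and in GoF 1 and at 4.44 to 22.6 FPKM in the other 5 mutant libraries (adjusted p = 0.36). Fxyd5 (chr7:31032722-31042481), a small membrane protein that modulates the sodium pump and cell adhesion, had 54.8, 41.0, 37.0 and 29.2 FPKM in LoF, 131 and 181 in GoF and 20.4 and 16 in WT. It rose by 2.06 ± 0.30 in both mutants (adjusted p = 0.0292) and by 3.02 in GoF (adjusted p = 0.00344), whereas 1.09 in LoF did not pass alone (adjusted p = 0.152). GoF stood 1.93 ± 0.32 above LoF (adjusted p = 0.00399).

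Cartilage matrix was the only one of the 12 cell type lists with a same-direction member. Snorc (listed as 3110079O15Rik, chr1:87470271-87475482), a chondrocyte membrane proteoglycan, was listed at 0 in both WT libraries and had 5.11, 42.2, 10.9 and 14.7 FPKM in LoF and 85.1 and 89.3 in GoF. Its difference was 5.18 ± 0.61 (adjusted p = 0.0115), 3.90 in LoF (adjusted p = 0.0238) and 6.46 in GoF (adjusted p = 0.00279), and its size depends on the added 1 since WT is at 0. Of 19 tested cartilage genes, 3 had all mutants above WT (Snorc, Comp and Col9a1) and 0 had all below, beside 3.79% and 3.65% of all genes. Snorc is among them because the same-direction rule requires it. The median difference of the list was 1.54. Comp, the pentameric matrix protein that links cartilage collagens, had 2.51 to 14.3 FPKM in LoF, 79.9 and 51.5 in GoF and 0.269 and 2.41 in WT (adjusted p = 0.0696). Col9a1, a chain of cartilage collagen IX, had 7.45 to 12.4 FPKM in LoF, 15.4 and 5.93 in GoF and 2.58 and 3.71 in WT (adjusted p = 0.33). The direction was not common to the list: Col11a1 had 21.5 to 53.0 FPKM in LoF, 240 and 230 in GoF and 159 and 146 in WT.

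Col10a1, the gene whose promoter drives the Cre, showed a similar but uncalled order, with 9.61, 114, 59.4 and 69.4 FPKM in LoF, 190 and 177 in GoF and 6.24 and 20.5 in WT. LoF 1 lay between the WT libraries, and the difference of 2.91 ± 0.77 did not pass (adjusted p = 0.22). Without LoF 1 it did (3.27, adjusted p = 0.0304), whereas in the other alternatives it did not. In pooled cells, a higher share of cartilage-like cells and more RNA of these genes per cell cannot be told apart. The same holds for every gene described here.

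The lists of bone, fat and stroma held no gene called over both mutants, but many that differed between the genotypes. GoF against LoF, limma called 20 of 26 tested osteoblast genes, 7 of 15 genes of fat cells and 12 of 19 of marrow stroma, beside 11.6% of all genes. Against WT, the calls in the same order were 14, 3 and 1 in LoF and 1, 1 and 2 in GoF. The median osteoblast gene differed from WT by -2.10 in LoF and 0.69 in GoF, the median gene of fat cells by 1.80 and -0.43, and that of marrow stroma by 1.00 and -1.11. In the average of both mutants such departures offset each other only in part, with medians of -0.62, 0.39 and -0.04 in the same order. The larger fall in LoF thus remained in the osteoblast list. In this average 13, 4 and 3 genes had an unadjusted limma p under 0.05 (1255 of all 12888). In the osteoblast list, Runx2, the master factor of bone formation, and Col5a1, a fibril collagen chain, were the members with all mutants below WT. These were 2 of 26 tested, with 0 above, beside 3.65% and 3.79% of all genes. Runx2 had 19.4 to 33.6 FPKM in LoF, 33.6 and 19.9 in GoF and 38.2 and 63.7 in WT (adjusted p = 0.42). Col5a1 had 8.21 to 17.1 FPKM in LoF, 23.1 and 19.2 in GoF and 45.8 and 44.2 in WT (adjusted p = 0.15). Col1a1, the main collagen of bone, stayed at the WT level in GoF and was low in LoF (244 to 821 FPKM, against 4626 and 6090 in GoF and 5470 and 6681 in WT). The fat regulator Pparg went the other way, with 10.6 to 22.4 FPKM in LoF, 0 and 0.679 in GoF and 4.72 and 1.47 in WT. The genes with the widest gap between the genotypes and WT in the middle were Cxcl12, Mmp13, Lpl and Mmp9, highest in LoF, and Dmp1, Gal, Lipi and Frzb, highest in GoF, with GoF minus LoF from -10.24 to -6.96 and from 5.62 to 7.85.

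**Figure D3:**
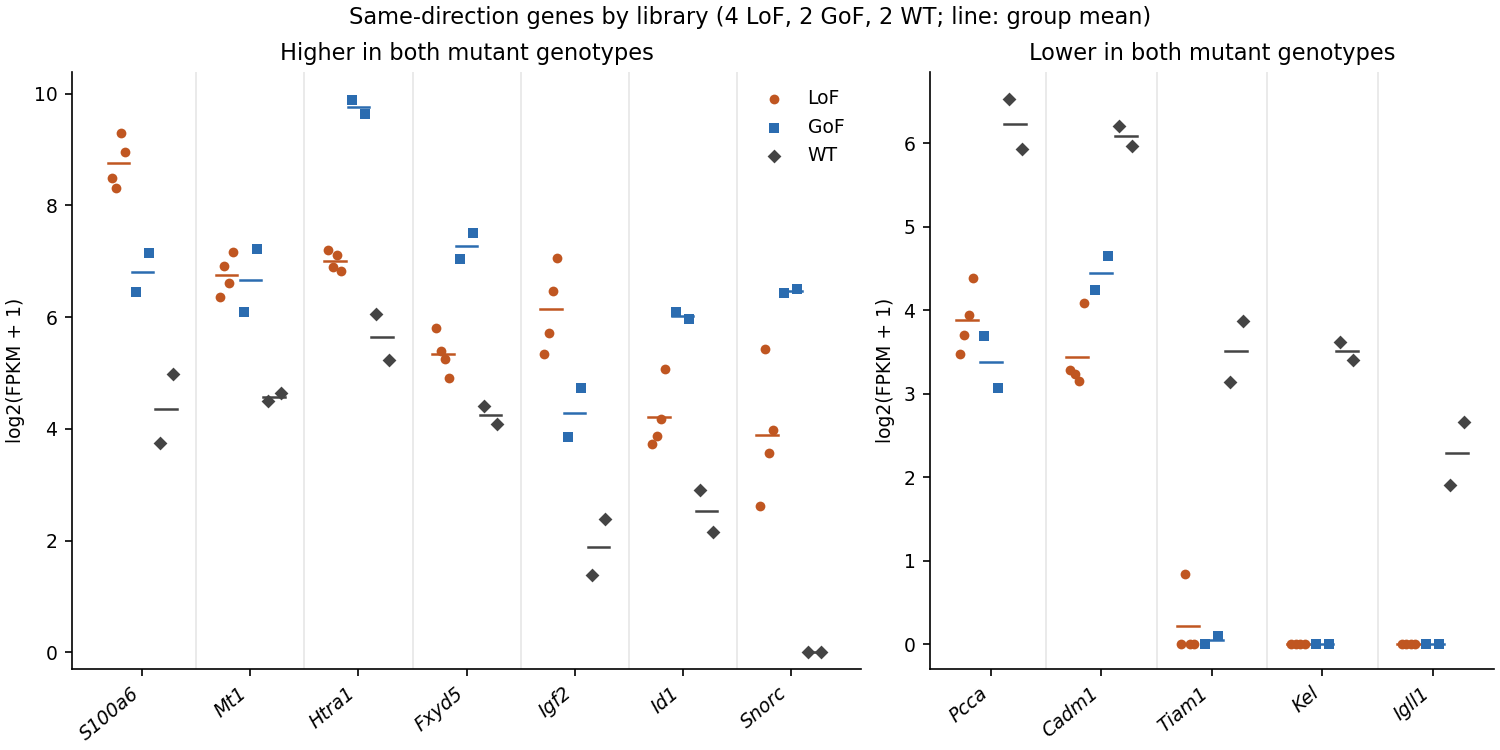
log2(FPKM + 1) of the named same-direction genes in the 4 LoF (circles), 2 GoF (squares) and 2 WT libraries (diamonds), with group means as lines. For each gene all 6 mutant libraries lie on 1 side of both WT libraries, as the rule requires. The order of the mutant genotypes differs between genes: S100a6 and Igf2 were highest in LoF, Htra1, Fxyd5, Id1 and Snorc in GoF, and Mt1 was similar in both.

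Among the named genes, 3 of the 5 that fell were at or near 0 in the mutants. These 3, Kel, Igll1 and Tiam1, passed the FPKM filter only through the WT libraries. Genes so low in the mutants enter the test only when higher in WT, so the filter fixed their direction. Likewise, same-direction genes at 0 in both WT libraries passed it only through the mutants. Kel (chr6:41686330-41704339), the Kell blood group peptidase of red-cell precursors, was listed at 0 in all 6 mutant libraries and at 11.3 and 9.61 FPKM in WT. Its log2 difference was -3.51 ± 0.36 (adjusted p = 0.00643), equal in LoF (adjusted p = 0.00586) and GoF (adjusted p = 0.00367) because both were at 0. Igll1 (chr16:16860671-16863985), the surrogate light chain of B-cell precursors, was likewise at 0 in all 6 mutant libraries and at 2.76 and 5.32 FPKM in WT (-2.29 ± 0.36, adjusted p = 0.0453). Tiam1 (chr16:89787111-89980080), an activator of the GTPase Rac that acts at cell junctions and is known as a Wnt-responsive gene in intestinal tumours, was at 0 in LoF 1, 3 and 4 and in GoF 1. It had 0.792 FPKM in LoF 2, 0.0716 in GoF 2 and 7.84 and 13.6 in WT. The difference was -3.38 ± 0.44 (adjusted p = 0.0188), with -3.30 in LoF (adjusted p = 0.0145) and -3.46 in GoF (adjusted p = 0.00891).

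Pcca and Cadm1 fell without being lost. Pcca (chr14:122534324-122891100), the α subunit of the mitochondrial propionyl-CoA carboxylase, had 10.1, 12, 14.4 and 19.98 FPKM in LoF, 12 and 7.42 in GoF and 91.2 and 60.3 in WT. WT was 5.36-fold the LoF mean and 7.82-fold the GoF mean, and the difference was -2.60 ± 0.36 (adjusted p = 0.0245; LoF 0.0227, GoF 0.00891). Pccb, the other subunit of that enzyme, had 3.90 to 13.6 FPKM in mutants and 5.82 and 3.92 in WT, a difference of 0.61 (adjusted p = 0.78), so the subunits did not move together. Cadm1 (chr9:47530173-47857637), a cell adhesion molecule of the immunoglobulin family, had 8.72, 8.40, 7.88 and 16 FPKM in LoF, 17.9 and 24.1 in GoF and 73.1 and 61.7 in WT. It fell by 2.15 ± 0.35 in both mutants (adjusted p = 0.0462) and by 2.65 in LoF (adjusted p = 0.0134), whereas -1.65 in GoF did not pass alone (adjusted p = 0.0772). GoF and LoF did not differ at the threshold in any of these 5 genes, with GoF minus LoF between -0.50 and 1.01 on the log2 scale.

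The fall of Kel and Igll1 was accompanied by lower values of some other blood-cell genes, which the picked cells should lack. Of the erythroid list 9 of 12 genes were tested and 0 were called by limma (4 at an unadjusted p under 0.05, beside 1255 of all 12888). All mutants lay below WT in 2 and above in 0, beside 3.65% and 3.79% of all genes, and the median difference was -2.53. Smim1, a membrane protein of red cells and other tissues, went the other way (2.45 in both mutants). The summed FPKM of the erythroid list was 2581 and 10602 in WT, 103 to 2302 in LoF and 915 and 1861 in GoF, nearly all of it globin. Hbb-bt, an adult β-globin, had 11.2, 303, 77.7 and 41.3 FPKM in LoF, 0 and 23.3 in GoF and 331 and 1494 in WT (adjusted p = 0.17). Globin copies are near-identical, so their values are uncertain one by one. Gata1, the defining factor of the lineage, was at 0 in all libraries but LoF 1 (0.33 FPKM) and WT 2 (0.703 FPKM).

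Of the myeloid and lymphoid list 14 of 22 genes were tested and 0 were called by limma (5 at an unadjusted p under 0.05, beside 1255 of all 12888). All mutants lay below WT in 2 (Mpo and Elane, enzymes of granulocyte precursors) and above in 0, beside 3.65% and 3.79% of all genes. The median difference was -1.04. Mpo had 0.252 FPKM in LoF 1, 0 in the other LoF libraries, 0 and 1.40 in GoF and 4.96 and 7.55 in WT (adjusted p = 0.0708). Elane had 0.873 FPKM in LoF 3, 0 in the other mutant libraries and 2.71 and 5.25 in WT (adjusted p = 0.0958). The summed FPKM of the list was 123 and 312 in WT, 56.7 to 193 in LoF and 24.5 and 29.7 in GoF. Itgam and Cd3e were at 0 in every library and Ptprc, the pan-leukocyte marker, was at 0.132 and 0 FPKM in WT, at 4.66 in LoF 2 and at 0.586 or 0 in the rest. Stfa1, a cystatin of neutrophils chosen after its values were seen, was at 0 in all mutants and at 32.3 and 3.49 FPKM in WT (adjusted p = 0.0708), and was called in LoF (adjusted p = 0.0374) and in GoF (adjusted p = 0.0429) alone. Like Kel and Igll1, Elane and Stfa1 passed the FPKM filter only through WT, which fixed their direction. The part of blood-cell RNA in the fall of Kel and Igll1 was not tested.

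**Figure D4:**
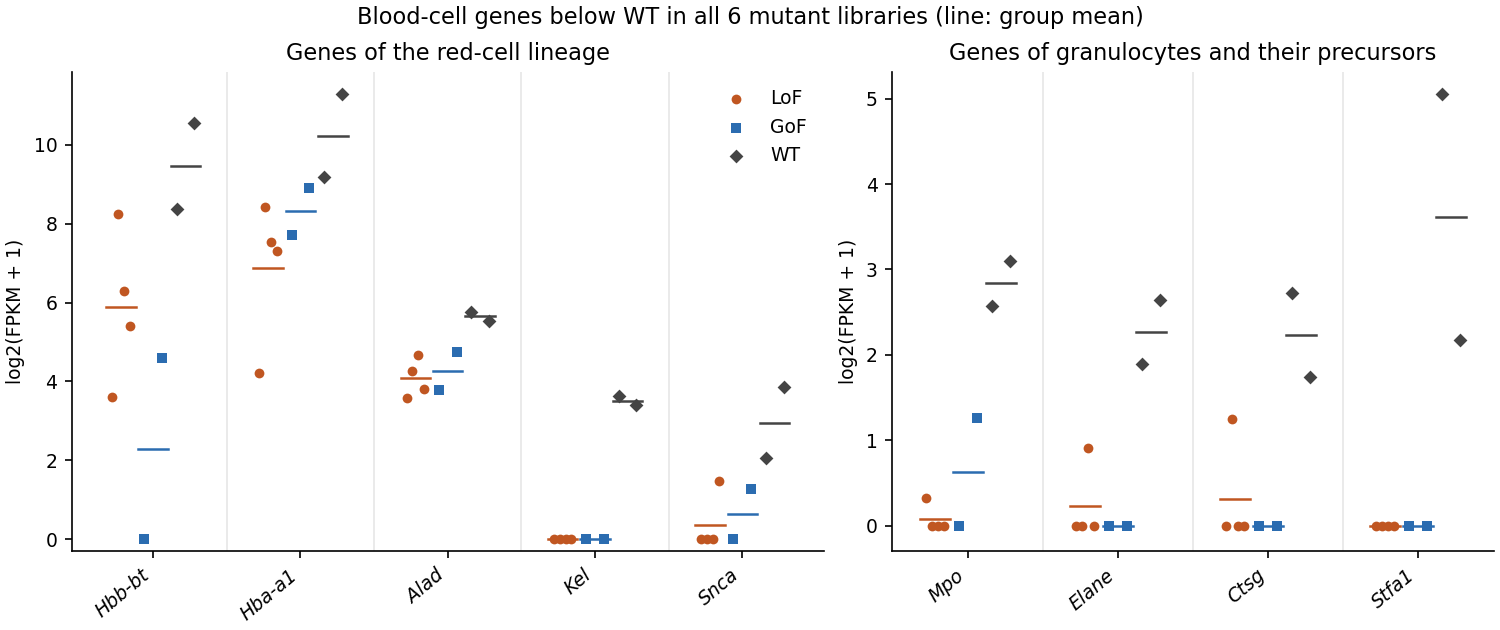
log2(FPKM + 1) of 5 genes of the red-cell lineage (left) and 4 of granulocytes and their precursors (right) in the 4 LoF (circles), 2 GoF (squares) and 2 WT libraries (diamonds), with group means as lines. In each of these genes, chosen because they show it, all 6 mutant libraries lie below both WT libraries, and of the 9 only Kel passed the test.

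Few markers of other unwanted cell types could be tested. The osteoclast, endothelial, pericyte and skeletal muscle lists had 3, 5, 7 and 1 tested members, of which none was called over both mutants. None had its 6 mutant libraries on 1 side of WT, beside 7.45% of all tested genes, and so few members cannot show a departure from that share. Against WT alone, limma called 2 of the 7 pericyte genes in GoF, beside 2.31% of all genes. Summed pericyte and smooth muscle FPKM was 75.8 to 182 in LoF, 5.86 and 7.12 in GoF and 53.5 and 68.6 in WT. Summed endothelial FPKM was 148 in LoF 3, 4.47 to 27.2 in the other LoF libraries, 2.89 and 1.80 in GoF and 10.8 and 6.60 in WT. The libraries were thus not alike in these cell types. Immediate early genes, which rise when tissue is dissociated, had 19 tested members and a median difference of -0.07. Of these 19, 2 (Fos and Jun) lay below WT in all 6 mutant libraries and 0 above, beside 3.65% and 3.79% of all genes. Fos had 138 to 360 FPKM against 375 and 385 in WT (adjusted p = 0.65), and Jun 9.43 to 26.6 against 35.7 and 34.3 (adjusted p = 0.36).

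Among general cell functions, some lysosomal genes stood above WT in both mutants, though limma called none. Its unadjusted p was under 0.05 in 5 of them, beside 1255 of all 12888 genes. Of 16 tested, 4 had all mutants above WT and 0 all below, beside 3.79% and 3.65% of all genes, and the median difference was 0.46. Ctsd, a lysosomal protease, had 67.8 to 99.2 FPKM in LoF, 145 and 195 in GoF and 64.0 and 40.5 in WT (adjusted p = 0.15). Sqstm1, the autophagy receptor p62, had 83.2 to 107 FPKM in LoF, 98.0 and 110 in GoF and 71.1 and 65.3 in WT (adjusted p = 0.48). Of the 16 genes used by every cell, Tpt1 and Fth1 had all mutants above WT and neither was called: Tpt1, a growth-related protein, had 989 to 2291 FPKM in LoF, 1494 and 1525 in GoF and 559 and 613 in WT (adjusted p = 0.16). Genes of the unfolded protein response, interferon response, Notch and Hedgehog signalling, integrins, actin response, collagen secretion and RNA processing had no member with its 6 mutant libraries on 1 side of WT, nor had the osteocyte and hypertrophic chondrocyte lists. Heat shock and proteasome genes had 2 of 12 and 1 of 15 members with all mutants above WT and none below. Genes of glycolysis, the respiratory chain and the cell cycle each had 1 member above and 1 below, and cholesterol and translation genes had 2 of 16 and 1 of 18 below. None of these was called, and over all tested genes 3.79% had all mutants above WT and 3.65% all below.

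Several regulators had all 6 mutant libraries on 1 side of WT, as had 7.45% of all tested genes, some by a narrow margin, without passing the test. Cebpb, a factor of early fat cell formation and inflammation, had 3.06, 5.66, 9.45 and 3.10 FPKM in LoF, 5.84 and 1.24 in GoF and 0.47 and 0 in WT (adjusted p = 0.29). Nrp2, a co-receptor for semaphorins and VEGF, had 14.2, 11.6, 2.77 and 5.86 FPKM in LoF, 9.03 and 15.3 in GoF and 36.0 and 39.3 in WT (adjusted p = 0.25). Aurkb, the mitotic kinase, had 4.51 to 8.77 FPKM in LoF, 0.416 and 0.65 in GoF and 12.8 and 9.18 in WT (adjusted p = 0.16). The cell cycle inhibitor Cdkn1c, chosen after its values were seen, had 7.33 to 23.9 FPKM in LoF, 13.3 and 3.14 in GoF and 2.14 and 2.17 in WT (adjusted p = 0.31). The mutant libraries of these 4 genes were widely spread.

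Pseudogenes made up 4 of the 12 higher and 1 of the 6 lower same-direction genes, beside 5.95% of all tested genes. Each matched a transcribed parent gene at 97.7% to 99.4% of its bases, so reads could have been assigned to either, and these calls are uncertain. Gm6969 matched Cox7a2l and Gm11942 matched Gm10073, and both were listed at 0 in WT, with 4.86 to 38.5 and 5.80 to 29.3 FPKM in mutants (adjusted p = 0.0115 and 0.0245). Rpl15-ps2, a copy of Rpl15, had 6.03 to 9.77 FPKM in LoF, 2.13 and 4.70 in GoF and 32.9 and 43.1 in WT (adjusted p = 0.0253). Rpl15 itself went the other way, with 289 to 532 FPKM in mutants and 240 and 261 in WT. Cox7a2l and Gm10073 lay above WT in all mutant libraries, as did their copies. None of these parents was called by limma. The remaining higher gene, Gm14325, a predicted protein-coding gene, had 8.07 to 25.6 FPKM in LoF, 11.1 and 8.68 in GoF and 0.237 and 0.701 in WT (adjusted p = 0.0285). These genes, which carry no established name, were chosen after their values were seen.

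Gm8210 and Gm13841 are both copies of the ribosomal protein gene Rpl29 and show what such a copy can mean. Over the 483 bases compared they were identical to each other and differed from Rpl29 at 3 positions (C72A, C300T and T423C, counted from the A of the start codon, Rpl29 base first). The first 100 bases of the 3 transcripts, from GENCODE release M21, are shown to make plain how little tells them apart, with position 72 in capitals.
Rpl29: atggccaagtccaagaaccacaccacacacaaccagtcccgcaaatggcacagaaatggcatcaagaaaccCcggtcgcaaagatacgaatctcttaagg
Gm8210: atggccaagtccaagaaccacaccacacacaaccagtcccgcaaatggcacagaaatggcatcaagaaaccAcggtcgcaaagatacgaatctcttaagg
Gm13841: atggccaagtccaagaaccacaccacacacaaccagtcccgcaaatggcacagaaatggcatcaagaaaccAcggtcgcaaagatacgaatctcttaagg
Gm8210 was listed at 0 in both WT libraries and at 25.5, 31.0, 22.7 and 11.8 FPKM in LoF and 18.8 and 32.3 in GoF (adjusted p = 0.00438). Gm13841 had 175, 201, 162 and 181 FPKM in LoF, 152 and 176 in GoF and 48.5 and 48.6 in WT (adjusted p = 0.0115). Rpl29 itself was listed at 0 in LoF 1 and LoF 2 and had 121 to 194 FPKM in the other 6 libraries, so a 0 in this table need not mean that the gene was silent. Summed over the 3 genes, FPKM was 200, 232, 378 and 314 in LoF, 303 and 366 in GoF and 181 and 185 in WT. The sum thus lay above WT in all 6 mutant libraries, by a smaller factor than Gm13841 alone. Gm8210, at 0 in WT, gives no factor.

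The promoters of the same-direction genes were searched for the core motif of TCF/LEF factors, through which β-catenin acts on DNA, spelled CTTTG with A or T at each of the next 2 positions, on either strand of the 250 bases before the start. RefSeq windows (GRCm38.p6) were matched for 10 of the 18 genes, and 2 of them, Tiam1 and Kel, held a match, beside 1111 of 9181 tested genes with a window (12.1%). Both genes fell in LoF and in GoF, and their windows are shown with the match in capitals. All lie on the minus strand: Tiam1 at chr16:89974700-89974949 and, for a second start, at chr16:89818353-89818602, and Kel at chr6:41704326-41704575.
Tiam1, first start: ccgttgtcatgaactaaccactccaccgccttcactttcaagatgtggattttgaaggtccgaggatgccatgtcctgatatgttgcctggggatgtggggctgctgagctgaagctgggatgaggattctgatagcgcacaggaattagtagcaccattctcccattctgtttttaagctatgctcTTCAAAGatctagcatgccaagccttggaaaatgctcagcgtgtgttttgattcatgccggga
Tiam1, second start: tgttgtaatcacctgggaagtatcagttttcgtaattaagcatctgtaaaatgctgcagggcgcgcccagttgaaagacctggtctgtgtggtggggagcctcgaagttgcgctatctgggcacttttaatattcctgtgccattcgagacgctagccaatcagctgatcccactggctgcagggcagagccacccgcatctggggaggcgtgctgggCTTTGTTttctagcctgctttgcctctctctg
Kel: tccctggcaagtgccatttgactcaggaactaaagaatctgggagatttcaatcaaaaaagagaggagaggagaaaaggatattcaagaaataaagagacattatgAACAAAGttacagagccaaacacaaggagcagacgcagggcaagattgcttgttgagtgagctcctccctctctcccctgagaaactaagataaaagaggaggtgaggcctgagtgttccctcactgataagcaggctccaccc
A match is a description of the letters and not a binding site, and 2 of 10 is too few to set against 12.1%.

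Because both mutants carry an engineered Ctnnb1 allele and WT does not, genes near Ctnnb1 on chromosome 9 were examined apart. Of 78 tested genes starting within 10 Mb of it, 1 was called (1.28%, beside 0.21% of all tested genes), 0 were same-direction, and 9 had all mutants on 1 side of WT (11.5%, beside 7.45%). The called gene was Cck, the gut and brain peptide cholecystokinin, which was at 0 in LoF and WT and at 56.6 and 41.6 FPKM in GoF. None of the same-direction genes lay in this interval. The other called genes without a common direction were of the same kind as Cck and Mmp9, with LoF near WT and GoF far from it, and were chosen after their values were seen. Egfem1, Fam84a, Car12, Itm2b and Rpl34-ps1 were high in GoF, and Sstr2 and Fabp5 were low. Itm2b, a membrane protein that inhibits amyloid processing, had 331 to 444 FPKM in LoF, 2932 and 3509 in GoF and 392 and 380 in WT.

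In all, 5 genes were called in both single comparisons but not in the average of both. Smim1, a small membrane protein of red cells and other tissues, had 10.8 to 21.9 FPKM in LoF, 19.8 and 11.4 in GoF and 1.43 and 2.96 in WT (adjusted p in LoF 0.0261, in GoF 0.0376 and over both 0.0593). Card19, a mitochondrial protein with a CARD domain, had 9.06 to 25.2 FPKM in LoF, 18.2 and 16.7 in GoF and 0 and 2.12 in WT (0.043, 0.0267 and 0.0654). The others were Gm5617 (higher), Gm16034 and Stfa1 (lower, both at 0 in all mutants and so tested only through their WT values). All 5 were chosen after their values were seen. Clu, a secreted chaperone chosen in the same way, had one of the largest uncalled differences, with 33.8, 83.0, 204 and 131 FPKM in LoF, 242 and 202 in GoF and 19.5 and 1.49 in WT (4.34 ± 0.78, adjusted p = 0.0708).

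The same-direction genes can be divided by whether the genotypes departed equally. GoF minus LoF passed the test in 7 of the 18, of which S100a6 and Igf2 were further from WT in LoF, and Htra1, Fxyd5, Id1, Snorc and Gm6969 further in GoF. In the other 11 the difference between the genotypes was not called. Both kinds of LoF library, with Xist and with Y-linked transcripts, lie beyond WT in these genes because the rule requires it, so their values are no test of sex.

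The number of same-direction genes depended on the fit and on single libraries. With the 6 mutant libraries as 1 group, whose spread then includes the distance between the genotypes, 2 genes were called (Gm8210 and Kel), and with sex as a covariate or with the replicate number as a block 0 same-direction genes and 1 called gene (Mmp9) were left. Without WT 1 there were 2 same-direction genes and without WT 2 there were 3, without LoF 2 there were 9 and without GoF 1 there were 11, or 0 when the genes tested were kept as in the full set.

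**Figure D5:**
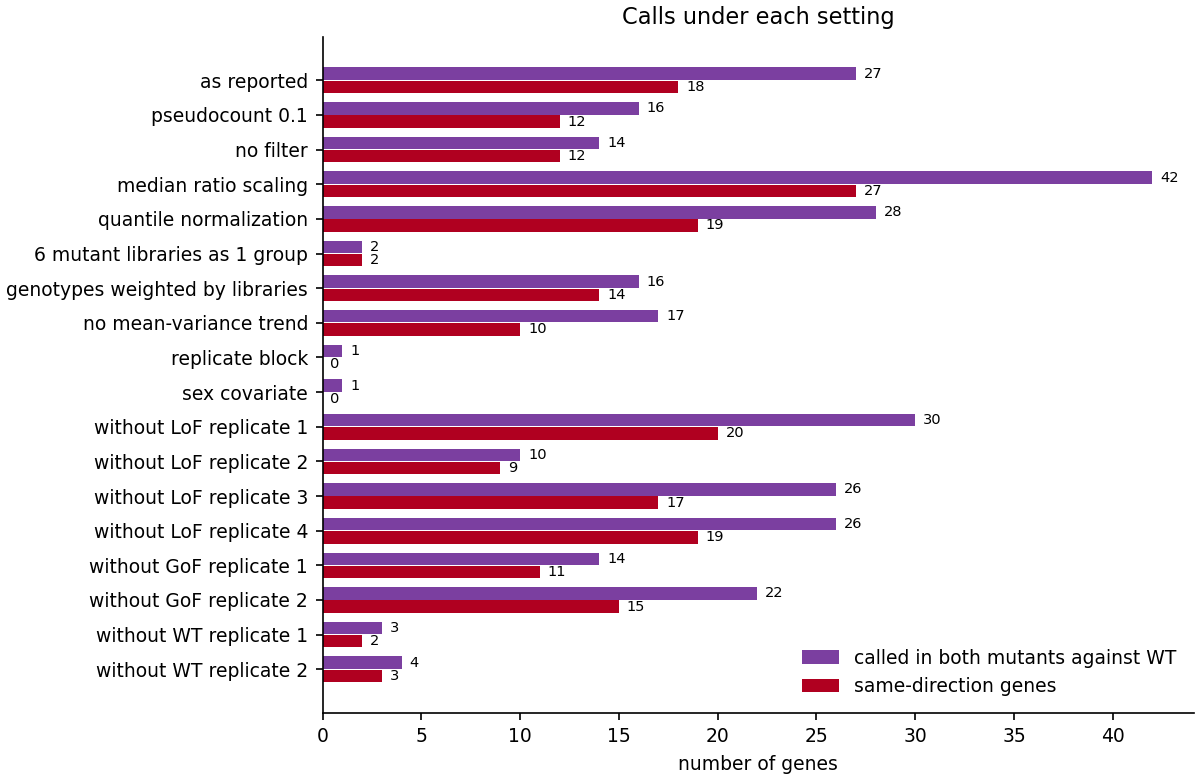
Number of genes called in both mutants against WT (purple) and of same-direction genes (red) under each setting, with leave-one-out settings testing the genes that pass the filter in the libraries left. Counts ran from 1 to 42 called and from 0 to 27 same-direction genes, with the lowest values for the replicate block, the sex covariate, the 6 mutants as 1 group and the settings without a WT library.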

How the data were processed

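RNA of 70 hand-picked cells per library was amplified with Smart-seq2, per the labels' protocols, which does not mark strand, so a gene and its antisense partner cannot be told apart. The deposited table gives the authors' FPKM per gene and library. The submitters' processing notes list mm10, HTSeq, Cufflinks, SAMtools 0.1.18 and HISAT2 without their roles, and the annotation is not given in the sources used here. Since FPKM is relative to the library total, abundant genes lower the others. Of 48555 lines, 65 repeated a gene ID with identical values and were dropped.

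No further scaling was applied before taking log2(FPKM + 1), which understates changes of low genes. The 3 group means of all 8 libraries were fitted with limma 3.58.1 in R 4.3.3 (mean-variance trend), so groups of 2 borrow spread from LoF. Groups came from the labels. The 37 gene lists held 671 entries, 3 of them without a match in the table. Pseudogenes were matched to parents with BLAST 2.17.0 on GENCODE M21 transcripts. The code was tested on simulated data.

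Named were the 12 largest same-direction genes per direction without predicted names, up to 4 called genes per list, fixed pathway genes, the 4 largest ordered genes per direction and called genes near Ctnnb1. The comparison, lists and genes were chosen with earlier results of these data known, and list counts are therefore descriptions. Same-numbered libraries did not deviate together (correlations -0.007 to 0.03), so the numbers were not treated as pairs. Other settings tried were pseudocount, filter, scaling, weighting of the genotypes, trend, replicate block, sex and leaving out each library. Leaving out a library with the tested genes kept was added after seeing the data.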

Additional observations from a re-analysis of the deposited data

Results flagged for a closer look

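In 5 of 60 gene and group combinations checked among the 4 LoF libraries, 1 library stood so far from its neighbours that the gap took most of the group's range (above Dixon's critical value), where chance gives about 1 in 20. The gap was 0.861 of the range for Cadm1, where LoF 4 was highest, and 0.865 for Card19, where LoF 3 was highest. It was 0.88 for Tcf7, where LoF 1 was highest. For Tiam1 and Gal it was 1, since LoF 2 and LoF 1 respectively were the only LoF libraries above 0. Among the named genes with a common direction, 7 differed between the genotypes by the limma test of GoF minus LoF. GoF was higher by 2.566 in Snorc (adjusted p = 0.0289), 1.934 in Fxyd5 (0.00399), 1.9 in Gm6969 (0.031), 2.752 in Htra1 (0.000259) and 1.816 in Id1 (0.023). GoF minus LoF was -1.855 in Igf2 (0.046) and -1.964 in S100a6 (0.0115).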

How the results depend on the processing

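Genes called in both mutants against WT numbered 27, and 16 with a pseudocount of 0.1, 14 with no filter (4 higher and 10 lower), 42 with median ratio scaling, 2 with the mutants as 1 group, 16 with genotypes weighted by libraries, 17 with no trend, 1 with the replicate block and 1 with the sex covariate. Same-direction genes numbered 18, and 2 with the mutants as 1 group, 10 with no trend, 0 with the replicate block and 0 with the sex covariate. Genes called in both single comparisons numbered 19, and 9 with no trend, 0 with the replicate block and 0 with the sex covariate. The replicate block gave 727 and the sex covariate 974 calls for GoF against LoF (1501 otherwise), and the replicate block 326 ordered genes (559 otherwise). The 1 called gene near Ctnnb1 was lost (0) with a pseudocount of 0.1, no filter, the mutants as 1 group, weighting by libraries, the replicate block and the sex covariate. Leaving out 1 library gave 1 to 30 called genes, 0 to 20 same-direction genes, 0 to 19 called in both single comparisons, 231 to 727 ordered genes, 414 to 1400 for GoF against LoF and 0 to 1 near Ctnnb1. Called genes fell to 3 without WT 1, 4 without WT 2, 10 without LoF 2 and 14 without GoF 1 (1 with the tested genes kept). Without GoF 2 there were 15 same-direction genes, or 5 with the tested genes kept. The causes were not tested.

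Quantile normalization gave 28 and 19. Median ratio scaling kept all 27 called and all 18 same-direction genes. Directions turned in 5 genes that were not called: Pparg (-0.4717) and Sox9 (0.02179) with a pseudocount of 0.1, Spp1 (-0.1074) with the sex covariate, and on leaving out 1 library Cdh11 (-0.5985 to 0.1766), Pparg (-0.3725 to 0.8373), Sox9 (-0.9595 to 0.5935), Spp1 (-0.1631 to 0.1833) and Tcf7l2 (-0.4231 to 0.08873). Some uncalled genes became calls: Col10a1 (3.27, adjusted p = 0.0304) without LoF 1, Mmp13 (-3.03, adjusted p = 0.00147) without GoF 2, Smim1 (2.55, adjusted p = 0.0443) without LoF 3 and Gm5617 (3.73, adjusted p = 0.04) without GoF 2. The call of Htra1 was kept in 19 of 25 alternatives, of Kel in 18 of 23, of Gm8210 in 18 of 25 and of S100a6 in 17 of 25. Igf2 and Fxyd5 kept theirs in only 8 of 25, Id1 in 6 of 25, Mt1 and Cadm1 in 5 of 25 and Igll1 in 2 of 23. Kel and Igll1 were above 0 only in WT, so they left the test when a WT library was left out and the filter applied anew. Those settings are missing from their 23. With the tested genes kept, both calls were lost without either WT library. With 2 WT libraries and unknown read depth, a gene at 0 cannot be told from one below detection.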
